A study of Mus musculus with 17 samples.

Results

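Glutamate and GABA receptor subunits form the receptors through which neurons respond to glutamate and GABA, and their RNA was measured here in preparations of mouse brain microvessels. The subunits were taken by gene symbol alone: every row of the count table named as an AMPA (Gria), kainate (Grik), delta (Grid) or NMDA (Grin) subunit, a metabotropic glutamate receptor (Grm), a GABA-A subunit (Gabr) or a GABA-B subunit (Gabbr). This gave 47 of 42687 genes, of which 4 were AMPA, 5 kainate, 2 delta, 7 NMDA, 8 metabotropic glutamate, 19 GABA-A and 2 GABA-B genes. Microvessels came from the cortex of WT mice and of APP/PS1 mice, a model of Alzheimer's disease that carries mutant amyloid precursor protein and presenilin transgenes, at 10 to 11 months of age. All mice received a peptide at 10 mg/kg intraperitoneally every 2 days for 2 weeks: either gp91-ds-tat, which inhibits NOX2 (an NADPH oxidase that makes superoxide), or its control, sgp91-ds-tat. There were 5 libraries of WT with control peptide, 5 of WT with inhibitor, 2 of APP/PS1 with control peptide and 5 of APP/PS1 with inhibitor. In the sample labels the genotype is APP, and in the series description APP/PS1. The labels do not say whether each library is a separate animal, so p-values measure the spread between these libraries, which may be technical.

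Ionotropic glutamate receptors are tetrameric cation channels: AMPA and kainate receptors open within milliseconds of glutamate binding, while NMDA receptors also need a co-agonist and relief of a magnesium block, and pass calcium. Metabotropic glutamate receptors and the GABA-B receptor are coupled to G proteins, the GABA-B receptor as an obligate pair of Gabbr1 and Gabbr2. GABA-A receptors are pentameric chloride channels, most often of alpha, beta and gamma subunits. In cortex these RNAs are chiefly those of neurons, and some are also made by astrocytes. The labels name the preparation as endothelium, pericytes and astrocyte endfeet. It was made by homogenising cortex and pelleting vessels through dextran.

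Libraries held 7316503 to 17862965 counts (median 11342154), and the receptor genes took 70230 to 229989 counts, or 0.902% to 1.29% of a library. Levels are CPM, counts scaled to a common library total, on library sizes scaled by the trimmed mean of M values. The labelled cells were present: the sum of 8 endothelial markers was 2250 to 4170 CPM and that of 7 mural markers 1050 to 1810 CPM. Markers of cells that the label does not name were present too: the sum of 10 neuron markers (such as Snap25 and Syt1) was 2730 to 4350 CPM, and no neuron marker was at 0 in any library. Markers of choroid plexus ranged from 29.4 CPM in WT control-peptide replicate 1 to 8100 CPM in WT control-peptide replicate 4. In the genotype comparison over both peptides, 6 of 6 microglia markers and 6 of 8 astrocyte markers had a higher estimate in APP/PS1. Of these, 4 microglia markers and Gfap passed an adjusted p of 0.05 in edgeR's quasi-likelihood test, where 0.587% of all tested genes passed.

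The receptors' promoters are described first. Whether their sequence has a part in the receptor RNA levels was not tested. Windows from 250 bases before to 50 bases after a gene's start, from RefSeq on GRCm38.p6, were found for 32 of the 47 genes (39 windows). The sequence searched was the RE1 element, to which the repressor REST binds and through which it silences neuronal genes in other cell types. Its right-hand part was searched as GGACAG, and the left and right parts together as GCACC and GGACAG separated by any 2 bases, on both strands. The longer form contains the shorter. GGACAG was in 22.2% of all 32851 windows and in 13 of the 39 receptor windows, and the joint form was in 0.0944% of all windows and in 1 receptor window, that of Gria2. Capitals mark a match, which here lies on the strand opposite to the one printed. Gria2 is shown for the match of the joint form, Grin1 and Gabbr2 for a match of the right-hand part alone, Gabbr2 also for the steepest called slope on neuron markers, and Grin2c as a subunit whose level did not follow the others. They lie at chr3:80802786-80803085, chr2:25319138-25319437, chr4:46991665-46991964 and chr11:115267194-115267493, all on the minus strand, and each is written 5′ to 3′ along its gene.
Gria2 promoter: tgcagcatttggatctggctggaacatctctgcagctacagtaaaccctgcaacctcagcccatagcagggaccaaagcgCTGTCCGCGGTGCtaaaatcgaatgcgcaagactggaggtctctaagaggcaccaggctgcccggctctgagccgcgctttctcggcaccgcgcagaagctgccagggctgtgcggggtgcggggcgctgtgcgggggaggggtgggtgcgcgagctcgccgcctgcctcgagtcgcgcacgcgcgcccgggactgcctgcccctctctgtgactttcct
Grin1 promoter: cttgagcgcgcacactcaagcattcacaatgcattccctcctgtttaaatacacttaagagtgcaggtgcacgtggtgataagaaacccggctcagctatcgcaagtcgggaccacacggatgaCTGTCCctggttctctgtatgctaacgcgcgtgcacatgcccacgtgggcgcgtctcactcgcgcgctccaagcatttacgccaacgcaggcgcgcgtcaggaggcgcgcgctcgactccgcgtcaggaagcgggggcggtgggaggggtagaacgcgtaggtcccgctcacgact
Gabbr2 promoter: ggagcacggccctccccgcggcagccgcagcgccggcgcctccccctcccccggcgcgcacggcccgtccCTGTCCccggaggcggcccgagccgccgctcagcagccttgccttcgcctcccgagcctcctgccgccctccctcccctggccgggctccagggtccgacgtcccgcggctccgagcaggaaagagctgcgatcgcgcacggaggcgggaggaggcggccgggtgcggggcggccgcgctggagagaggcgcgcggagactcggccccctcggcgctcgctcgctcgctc
Grin2c promoter: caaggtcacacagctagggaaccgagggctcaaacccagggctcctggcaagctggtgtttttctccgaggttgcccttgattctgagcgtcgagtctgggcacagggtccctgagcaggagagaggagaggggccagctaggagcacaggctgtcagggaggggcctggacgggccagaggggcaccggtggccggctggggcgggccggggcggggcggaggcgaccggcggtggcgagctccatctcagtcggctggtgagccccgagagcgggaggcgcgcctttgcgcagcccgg

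GC content was 65.7% in the Gria2 window, 60.7% in that of Grin1, 80.3% in that of Gabbr2 and 70% in that of Grin2c, against a median of 52.7% over all windows. Over the receptor windows it ran from 38.3% for Gabrg1 to 82% for Grik3. A match describes letters in a window and shows no binding, and a window with no match shows only that these letters are not in it.

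Of the 47 genes, 42 had enough counts to be tested and 5 did not. The 5 are Gabra6, a subunit of cerebellar granule cells (23 counts over all 17 libraries), Gabrp (2), the rho subunits Gabrr1 (40) and Gabrr3 (11), which are best known from the retina, and Grm6, the receptor of retinal ON bipolar cells (5). A count of 0 allows a level of up to 0.174 to 0.39 CPM, depending on the library (counting error only). To compare genes with each other, CPM was divided by the length of a gene's annotated exons in kb (GENCODE vM21, which may not be the annotation the counts were made with). On that scale the median of the 18678 tested genes with a length was 4.49 CPM per kb. Long annotated untranslated ends lower this value where transcripts do not carry them.

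**Figure D1:**
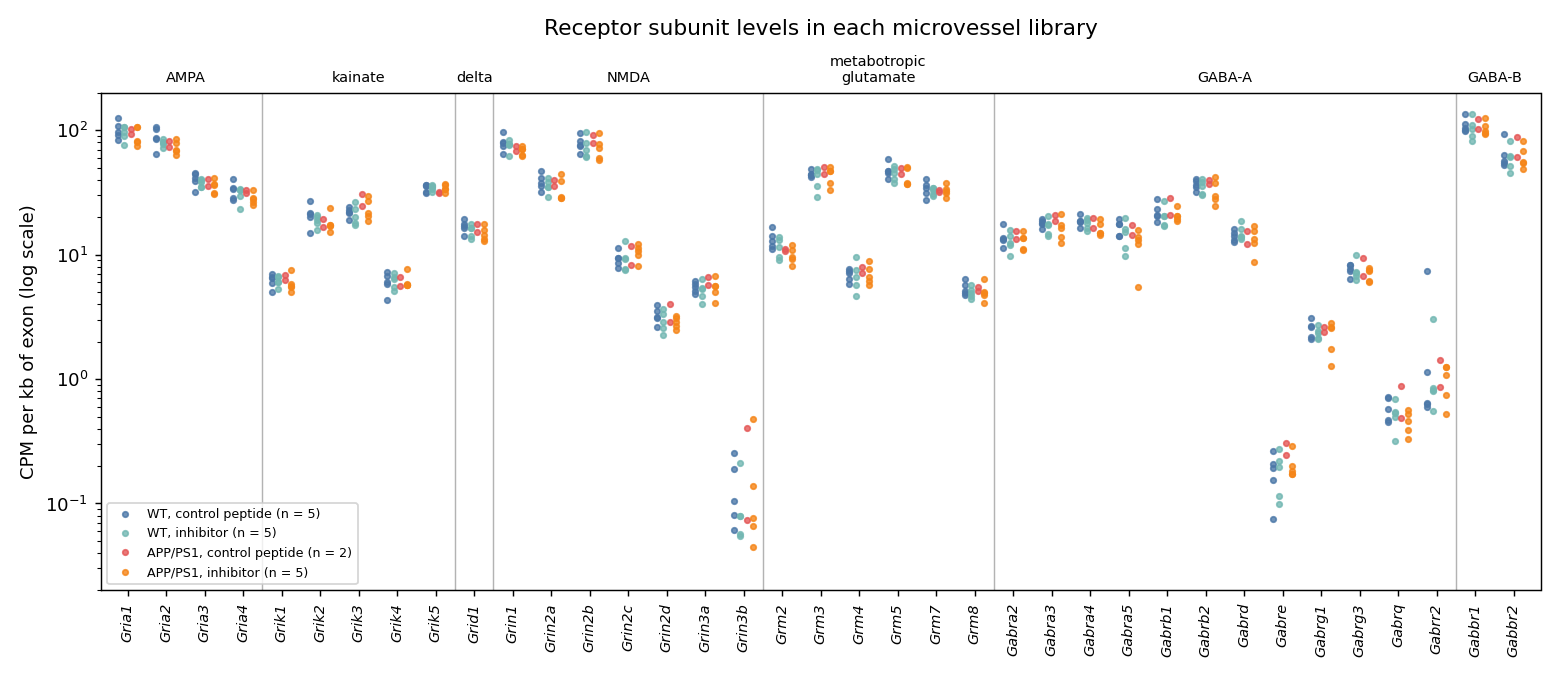
Level of the tested receptor genes named here in each library, in CPM per kb of annotated exon on a log axis; each point is 1 library, coloured by group, and lines part the receptor families. Gabbr1 (81.8 to 136) and Gria1 (74.7 to 125) stand at the top, Grin3b (0.0448 to 0.472) and Gabre (0.0754 to 0.307) at the bottom, and the 4 groups lie among each other.

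Among the AMPA receptor genes, Gria1 had the highest level per length (95.7 ± 13.5 CPM per kb, SD, n = 17), followed by Gria2 (80.1 ± 11.7), Gria3 (37.9 ± 4.35) and Gria4 (30.8 ± 4.14). Gria2 encodes the subunit whose edited form makes the channel nearly impermeable to calcium. Gria2 measured 1580, 1660, 1320, 1000 and 1350 CPM in the WT control-peptide libraries and 1260, 1320, 1200, 1120 and 1250 CPM in the WT inhibitor libraries. Gria2 in APP/PS1 was at 1270 and 1150 CPM with control peptide and at 1220, 979, 1330, 1080 and 1070 CPM with inhibitor. The highest and second highest values were WT control-peptide replicates 2 and 1, and the APP/PS1 values lay within the WT range except for 979 CPM in APP/PS1 inhibitor replicate 2. Gria1 was at 753, 659, 551, 507 and 581 CPM in WT with control peptide and at 589, 648, 637, 464 and 547 CPM in WT with inhibitor. Gria1 in APP/PS1 was at 623 and 562 CPM with control peptide and at 489, 451, 638, 496 and 642 CPM with inhibitor. Gria1 was highest in WT control-peptide replicate 1 and the groups overlapped. By length, Gria2 made up 28.6% to 35.4% of AMPA subunit RNA and Gria1 36% to 44.2%.

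The NMDA receptor genes were led by Grin2b (76.3 ± 12.9 CPM per kb) and Grin1 (74.1 ± 8.83), with Grin2a at 36.4 ± 5.63. Grin1 encodes the obligatory, glycine-binding subunit, and Grin2a and Grin2b the main glutamate-binding subunits of the forebrain. Grin2b measured 2380, 2050, 1900, 1610 and 1860 CPM in the WT control-peptide libraries and 1960, 2390, 1550, 1520 and 1730 CPM in the WT inhibitor libraries. Grin2b in APP/PS1 was at 2290 and 1960 CPM with control peptide and at 1780, 1500, 1940, 1430 and 2350 CPM with inhibitor. Levels near or above 2290 CPM were reached in 1 library of each group, so the groups overlapped. Grin1 was at 937, 787, 726, 630 and 774 CPM in WT with control peptide and at 756, 815, 748, 604 and 740 CPM in WT with inhibitor. Grin1 in APP/PS1 was at 732 and 658 CPM with control peptide and at 682, 619, 682, 608 and 720 CPM with inhibitor. WT control-peptide replicate 1 was the highest for Grin1 and WT inhibitor replicate 4 the lowest. Grin2a made up 28.8% to 36.1% of Grin2a and Grin2b together, by length. The other 4 were lower: Grin2c at 9.75 ± 1.68, Grin3a at 5.44 ± 0.794, Grin2d at 3.08 ± 0.505 and Grin3b at 0.144 ± 0.126 CPM per kb. Grin3b had 2 to 19 counts in a library and shares 32.1% of its exon bases with Tmem259 on the other strand; for Grin1 the share, with Grin1os, is 13.5%. The library kit marks strand, but the counting setting is not given in the sources used here, so reads of such pairs may not be told apart.

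Among kainate receptor genes, Grik5 was the highest per length (34.2 ± 2.11 CPM per kb), ahead of Grik3 (22.8 ± 3.91), Grik2 (19.2 ± 3.15), Grik1 (6.13 ± 0.711) and Grik4 (6.11 ± 0.839). Grik5 and Grik4 encode high-affinity subunits that need one of the other 3 as partner. Grik5 was also the steadiest of the tested receptor genes, with 162 to 191 CPM and a ratio of highest to lowest library of 1.18. Grik3 measured 219, 204, 198, 193 and 171 CPM in the WT control-peptide libraries and 209, 239, 161, 155 and 180 CPM in the WT inhibitor libraries. Grik3 in APP/PS1 was at 274 and 222 CPM with control peptide and at 183, 193, 241, 166 and 264 CPM with inhibitor. Both APP/PS1 control-peptide libraries were above the 5 WT control-peptide libraries, while with inhibitor the genotypes overlapped. Grik2 was at 287, 358, 284, 198 and 266 CPM in WT with control peptide and at 274, 265, 211, 239 and 253 CPM in WT with inhibitor. Grik2 in APP/PS1 was at 257 and 223 CPM with control peptide and at 231, 203, 315, 227 and 229 CPM with inhibitor. Grik2 reached its maximum in WT control-peptide replicate 2, and its groups overlapped. Grid1, a delta receptor gene whose protein binds cerebellins and does not open as an ordinary glutamate channel, was at 15.8 ± 1.87 CPM per kb and ranged from 77.4 to 115 CPM.

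Metabotropic glutamate receptors fall into group I, with Grm5, which couples to phospholipase C, and groups II and III, which lower cyclic AMP. Grm5 (45.2 ± 6.21 CPM per kb), Grm3 (43.6 ± 6.31), a receptor of astrocytes as well as neurons, and Grm7 (33 ± 3.22), a presynaptic group III receptor, were the highest. Grm5 measured 482, 599, 466, 413 and 487 CPM in the WT control-peptide libraries and 502, 533, 384, 417 and 464 CPM in the WT inhibitor libraries. Grm5 in APP/PS1 was at 506 and 457 CPM with control peptide and at 376, 378, 519, 386 and 512 CPM with inhibitor. Its lowest values were 376 and 378 CPM in APP/PS1 inhibitor replicates 1 and 2, beside 519 and 512 in replicates 3 and 5 of the same group. Grm3 was at 135, 150, 134, 129 and 133 CPM in WT with control peptide and at 137, 149, 88.2, 109 and 146 CPM in WT with inhibitor. Grm3 in APP/PS1 was at 156 and 136 CPM with control peptide and at 101, 143, 144, 116 and 156 CPM with inhibitor. Grm3 was lowest in WT inhibitor replicate 3 and its groups overlapped. Grm7 ran from 162 to 239 CPM. Lower levels were measured for Grm2, at 11.5 ± 2.2, Grm4 at 6.97 ± 1.23 and Grm8 at 5.15 ± 0.626 CPM per kb.

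Among the GABA-A genes, Gabrb2 was at 35.2 ± 5.07 and Gabrb1 at 21.5 ± 3.55 CPM per kb; both encode beta subunits, which help to form the GABA binding site. Gabrb1 measured 388, 320, 288, 253 and 281 CPM in the WT control-peptide libraries and 281, 373, 237, 241 and 282 CPM in the WT inhibitor libraries. Gabrb1 in APP/PS1 was at 393 and 288 CPM with control peptide and at 283, 266, 285, 256 and 344 CPM with inhibitor. The top library for Gabrb1 was APP/PS1 control-peptide replicate 1 and the lowest WT inhibitor replicate 3, and the groups overlapped. The alpha genes named here were close to each other, at 17.6 ± 1.96 for Gabra4, 17.4 ± 2.48 for Gabra3, 14.5 ± 3.58 for Gabra5 and 13.4 ± 2.03 CPM per kb for Gabra2. Gabrd, of the extrasynaptic receptors that carry tonic inhibition, was at 14.2 ± 2.22, Gabrg3 at 7.43 ± 1.06 and Gabrg1 at 2.38 ± 0.438. Gabrr2 (1.39 ± 1.66), Gabrq (0.537 ± 0.147) and Gabre (0.198 ± 0.0655) were the lowest of the tested GABA-A genes.

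The GABA-B pair was abundant. Gabbr1 (ENSMUSG00000024462, chr17:37045966-37075067 on GRCm38, plus strand), which binds GABA, was at 107 ± 15.3 CPM per kb, the highest of all 47 genes and within the top 0.407% of the 18678 genes with a length. Gabbr2 (ENSMUSG00000039809, chr4:46662305-46991873, minus strand), which couples to the G protein, was at 63.5 ± 14.2 CPM per kb. Gabbr1 measured 1050, 880, 809, 765 and 782 CPM in the WT control-peptide libraries and 850, 1050, 699, 635 and 796 CPM in the WT inhibitor libraries. Gabbr1 in APP/PS1 was at 964 and 790 CPM with control peptide and at 744, 770, 835, 730 and 978 CPM with inhibitor. Gabbr2 was at 619, 426, 380, 352 and 363 CPM in WT with control peptide and at 409, 551, 343, 303 and 415 CPM in WT with inhibitor. Gabbr2 in APP/PS1 was at 587 and 411 CPM with control peptide and at 372, 362, 454, 327 and 546 CPM with inhibitor. In each group of 5, 1 library was the highest for both genes: replicate 1 of WT with control peptide, replicate 2 of WT with inhibitor and replicate 5 of APP/PS1 with inhibitor. By length the ratio of Gabbr1 to Gabbr2 was 1.41 to 1.92, and the ratio of ionotropic glutamate receptor to GABA-A receptor RNA 1.7 to 2.2.

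The first comparison asks how the receptor RNA differed with genotype. None of the 42 tested genes passed an adjusted p of 0.05 in edgeR's quasi-likelihood test (Benjamini-Hochberg over all 18753 tested genes) between APP/PS1 and WT over both peptides, where 0.587% of all genes passed. The same was found with control peptide alone (0 of 42; 0.0533% of all genes) and with inhibitor alone (0 of 42; 0.181%). At an unadjusted p under 0.05, 1 of 42 was found over both peptides by edgeR and 1 by DESeq2, and none within either peptide. In edgeR 6.38% of all tested genes were under that p over both peptides, 3.97% with control peptide and 3.38% with inhibitor. No receptor gene had its genotypes fully apart over both peptides (0.272% of all tested genes were) or with inhibitor (0.784%); with control peptide 2 of 42 were, Grik3 above and Grm2 below, against 7.53% of all genes.

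Grm2 (ENSMUSG00000023192, chr9:106643095-106656082 on GRCm38, minus strand), a group II receptor found on axons, had the smallest p. Grm2 measured 82.2, 69.6, 62.6, 54.6 and 57.3 CPM in the WT control-peptide libraries and 68.4, 56, 44.2, 47.3 and 64.6 CPM in the WT inhibitor libraries. Grm2 in APP/PS1 was at 54.2 and 52.6 CPM with control peptide and at 39.8, 45.2, 53.2, 46.7 and 58.7 CPM with inhibitor. The 2 APP/PS1 control-peptide values lay below all 5 WT ones, and the inhibitor groups overlapped. The mean was 60.7 CPM in WT and 50.1 CPM in APP/PS1, a log2 difference of -0.24 ± 0.11 (SE; edgeR adjusted p = 0.74). Grm2 shares 9.6% of its exon bases with Gm28111 on the other strand. Grik3 went the other way, with 193 CPM in WT and 220 CPM in APP/PS1 (log2 difference 0.22 ± 0.11, edgeR adjusted p = 0.789). With control peptide alone Grik3 had the smallest p (0.33 ± 0.18, adjusted p = 1 by edgeR), and with inhibitor alone Grm2 (-0.21 ± 0.14, adjusted p = 1 by edgeR).

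Over the 42 genes, 24 had a lower and 18 a higher estimate in APP/PS1, with a median log2 difference of -0.022 beside 0.002 over all tested genes. The split was 19 lower and 23 higher with control peptide (median 0.032) and 28 lower and 14 higher with inhibitor (median -0.049). The control-peptide median was below 0 without WT control-peptide replicate 4 (-0.017) or APP/PS1 control-peptide replicate 1 (-0.094). All 4 AMPA genes had a lower estimate (-0.14 for Gria2 to -0.07 for Gria1), both GABA-B genes a higher one (0.02 and 0.1), and the 15 tested GABA-A genes were split into 10 lower and 5 higher. Neuron markers stood at a sum of 2730 to 4350 CPM in WT and 2760 to 4250 CPM in APP/PS1, with 8 of 10 estimates higher in APP/PS1 and a median of 0.092. With the mean log2 level of those markers as a covariate, added to the groups, 33 of 42 receptor genes had a lower estimate and the median was -0.079. In that fit 6 of 42 were at an unadjusted p under 0.05 by edgeR and none passed after adjustment. The share of all genes under that p was not taken for that fit. Microglia markers summed to 171 to 238 CPM in WT and 205 to 385 CPM in APP/PS1, and their part in the result was not tested.

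**Figure D2:**
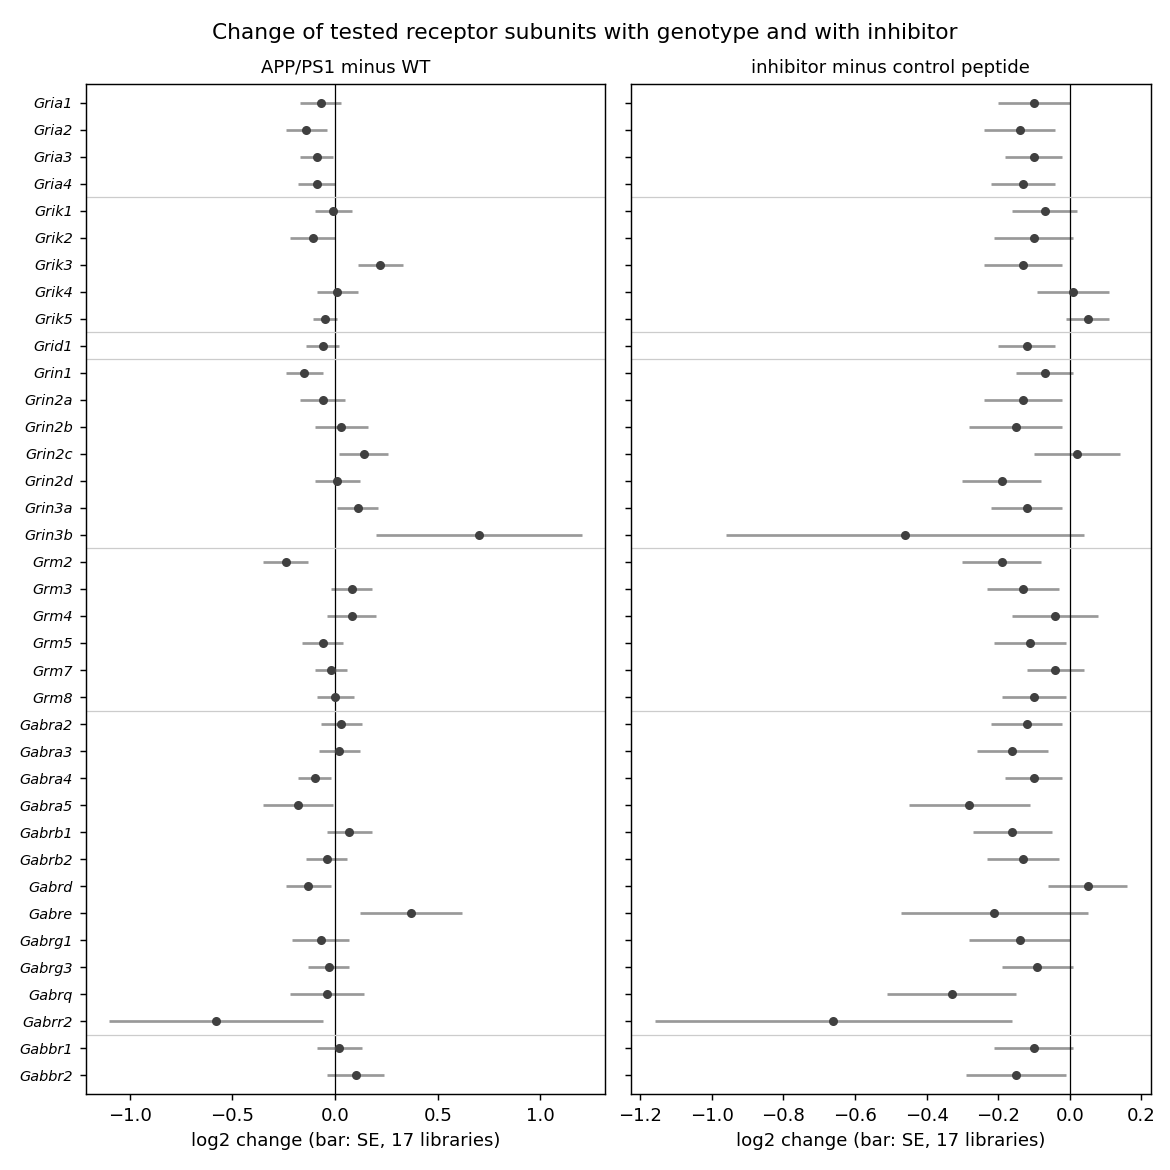
log2 difference of 37 of the 42 tested receptor genes between genotypes (left) and between peptides (right), fitted over all 17 libraries, with bars of 1 SE; lines part the families. Genotype estimates lie on both sides of 0, while 33 of the 37 inhibitor estimates shown lie below 0, and none passed an adjusted p of 0.05.

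The second comparison asks how the receptor RNA differed with the NOX2 inhibitor. No receptor gene and no gene at all passed the test over both genotypes, in WT alone or in APP/PS1 alone (0 of 42 and 0% of all genes in each). The test of whether the inhibitor's effect differed between genotypes gave 0 of 42 and 0% as well. At an unadjusted p under 0.05, edgeR found 0 of 42 genes over both genotypes, 0 in WT, 1 in APP/PS1 and 0 for the difference between genotypes, and DESeq2 found 0 in each. Of all tested genes edgeR found 2.11%, 1.34%, 1.8% and 0.843% at that p, so the 1 of 42 in APP/PS1 is near the share over all genes. No receptor gene had the peptides fully apart in WT (0.224% of all genes did) or in APP/PS1 (4.63% did).

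The estimates nonetheless lay mostly to one side. Over both genotypes 38 of 42 were lower with inhibitor, where 9108 of all 18753 tested genes were. The median log2 difference was -0.125 beside 0.004 over all tested genes. The 38 covered all 4 AMPA, all 7 tested metabotropic, both GABA-B and both delta genes, 14 of 15 GABA-A, 6 of 7 NMDA and 3 of 5 kainate genes. The exceptions were Gabrd (0.05 ± 0.11), Grik5 (0.05 ± 0.06), Grin2c (0.02 ± 0.12) and Grik4 (0.01 ± 0.1). In WT 38 of 42 were lower with a median of -0.089, and in APP/PS1 38 of 42 with a median of -0.151. The WT median was nearer to 0 without WT inhibitor replicate 3 (-0.04) or 4 (-0.053) or WT control-peptide replicate 1 (-0.057) or 2 (-0.055). It was farther from 0 without WT inhibitor replicate 2 (-0.163) or WT control-peptide replicate 4 (-0.141). Receptor genes vary together from library to library, so these counts are not 42 separate measurements. Within groups, their mean log2 level had an SD of 0.166 between libraries, which is larger than the shift of -0.125.

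The summed level of the 47 genes was 9520 to 13300 CPM in WT with control peptide and 9130 to 12800 CPM in WT with inhibitor. In APP/PS1 it was 10700 and 12400 CPM with control peptide and 9090 to 12100 CPM with inhibitor. The groups overlapped. The APP/PS1 figure rests on 2 control-peptide libraries: without replicate 1 of them the median was -0.07 with 32 of 42 lower, and without replicate 2 it was -0.245 with 37 of 42 lower. Inhibitory neuron markers had 4 of 7 estimates lower with inhibitor (median -0.172) and excitatory neuron markers 3 of 6 (median -0.029), none called. Neuron markers had 6 of 10 estimates lower with inhibitor (median -0.024), and with their mean as a covariate 38 of 42 receptor genes had a lower estimate (median -0.115). In that fit 2 of 42 were at an unadjusted p under 0.05 by edgeR and none passed after adjustment. The share of all genes under that p was not taken for that fit. Glial markers also had mostly lower estimates with inhibitor: 7 of 7 for oligodendrocytes (median -0.124), 6 of 6 for their precursors (-0.09) and 7 of 8 for astrocytes (-0.082), none called. Their part in the result was not tested. Choroid plexus markers had 5 of 5 estimates higher with inhibitor over both genotypes (median 0.141, none called). The strata differed: 5 of 5 were lower in WT (median -0.258) and 5 of 5 higher in APP/PS1 (median 0.874), none called. With the mean of those markers as a covariate, an alternative chosen after seeing the data, the receptor median over both genotypes was -0.097.

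Gabrq, which encodes the theta subunit, had the smallest p over both genotypes. Gabrq measured 3.07, 2.51, 3.76, 3.84 and 2.41 CPM in the WT control-peptide libraries and 2.9, 3.7, 2.87, 1.69 and 2.64 CPM in the WT inhibitor libraries. Gabrq in APP/PS1 was at 4.73 and 2.58 CPM with control peptide and at 1.77, 2.07, 2.82, 2.45 and 3.03 CPM with inhibitor. The highest value, 4.73 CPM, was APP/PS1 control-peptide replicate 1, and all groups overlapped. The mean was 3.27 CPM with control peptide and 2.59 CPM with inhibitor (log2 difference -0.33 ± 0.18, edgeR adjusted p = 1). In APP/PS1 the difference was -0.62 ± 0.29 (edgeR adjusted p = 1), and the genotypes' difference in effect was -0.46 ± 0.38 (edgeR adjusted p = 1). In WT, Grm2 had the smallest p (-0.22 ± 0.14, edgeR adjusted p = 1).

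**Figure D3:**
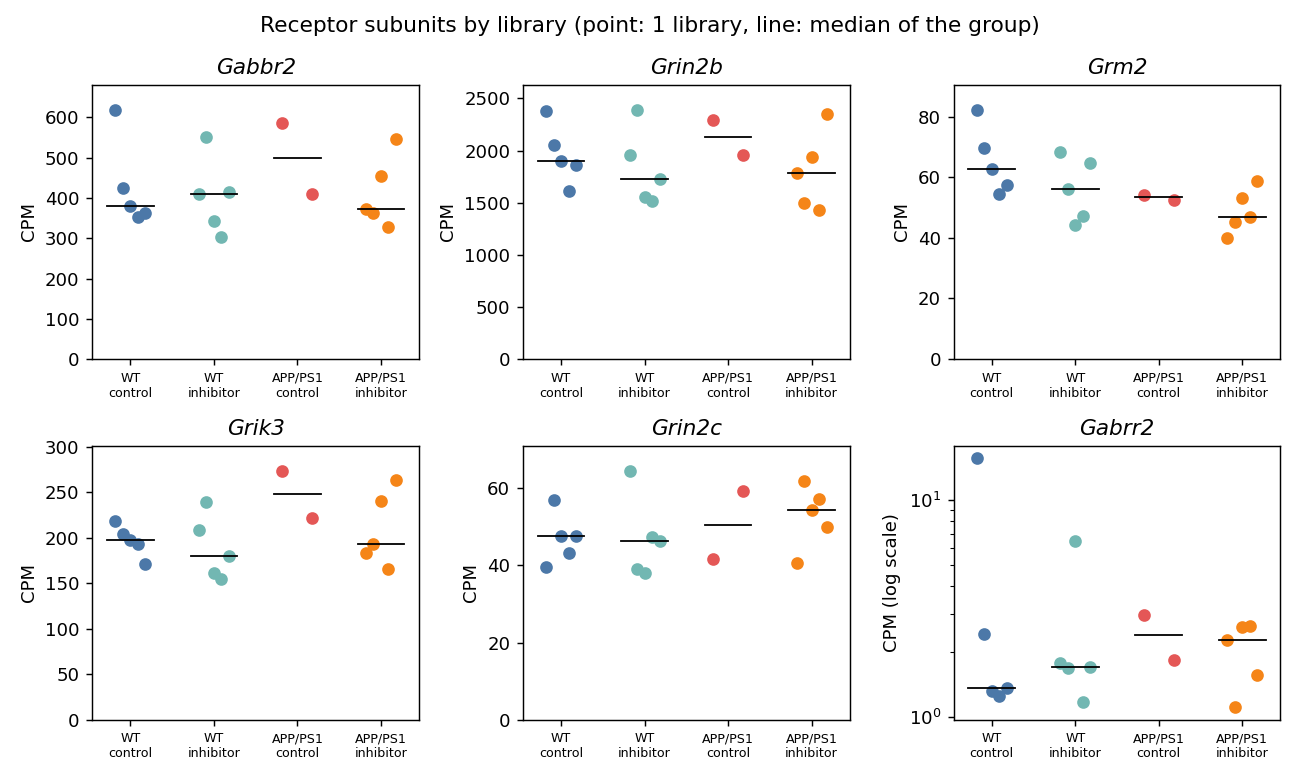
CPM of 6 receptor genes by group; each point is 1 library and the line is the group's median (log axis for Gabrr2). Gabbr2 and Grin2b are highest in single libraries of every group, the APP/PS1 control-peptide libraries are above the WT control-peptide libraries for Grik3 and below them for Grm2, and Gabrr2 stands at 15.6 and 6.46 CPM in 2 WT libraries.

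Since receptor RNA followed libraries more than groups, each gene's level was regressed on a neuron score, the mean log2 CPM of 10 neuron markers none of which is a receptor subunit, with the 4 groups in the model. The score ran from 6.92 to 7.51, so a slope of 1 means that the receptor's RNA doubled when the markers' mean doubled, over a span of less than 1 log2 unit. In these bulk libraries, fewer neurons and less RNA per neuron cannot be told apart. Of the 42 genes, 13 passed the test, all with a slope above 0, where 9.58% of all genes passed in either direction and 6.37% with a slope above 0. Estimates were above 0 for 37 of 42 receptor genes, with a median slope of 0.6, beside -0.03 over all tested genes. Below, a gene said to rise or fall with the score is one that passed this test. The score and the receptors come from the same libraries and share their scaling.

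**Figure D4:**
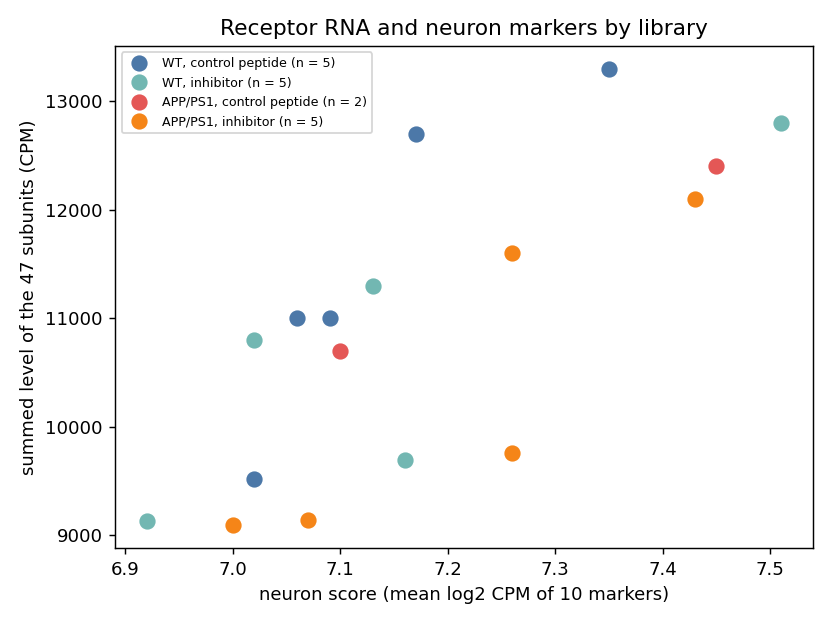
Summed level of the 47 receptor genes (CPM) against the neuron score (mean log2 CPM of 10 neuron markers); each point is 1 of 17 libraries, coloured by group. The libraries at the upper right come from all 4 groups, with WT control-peptide replicate 1 at 13300 CPM and WT inhibitor replicate 2 at 12800 CPM.

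Both GABA-B genes rose with the neuron score. Gabbr2 had the largest slope of the called genes (1.55 ± 0.22, SE; edgeR adjusted p = 0.000496) and Gabbr1 a slope of 1.02 ± 0.2 (adjusted p = 0.00389, edgeR). Both were highest in WT control-peptide replicate 1, WT inhibitor replicate 2, APP/PS1 control-peptide replicate 1 and APP/PS1 inhibitor replicate 5, which have the 4 highest neuron scores (7.35, 7.51, 7.45 and 7.43). Of 15 tested GABA-A genes 5 rose, among them Gabrb1 (1.11 ± 0.18), Gabrg3 (0.95 ± 0.18) and Gabra5 (1.38 ± 0.4), and 14 of the 15 had an estimate above 0. Gabrb1 lies on chromosome 5 head to head with Gabra4, with which it shares 46 exon bases and which did not pass (0.54 ± 0.19, edgeR adjusted p = 0.0883).

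Of 7 NMDA genes, 3 rose with the score: Grin2b (1.21 ± 0.23), Grin2a (1.01 ± 0.23) and Grin1 (0.69 ± 0.19), the subunits of the common forebrain receptors. Grin3a (0.76 ± 0.24, edgeR adjusted p = 0.0585) and Grin2d (0.7 ± 0.29, edgeR adjusted p = 0.134) had estimates near that of Grin1 and did not pass. Gria1 was the AMPA gene that passed (0.9 ± 0.22). Gria2, whose promoter held the joint form of the motif, was at 0.53 ± 0.27 (edgeR adjusted p = 0.227). Whether the motif has a part in these slopes was not tested. Grik3 (1.01 ± 0.21) was the kainate gene that passed. None of these slopes was tested against another.

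The 5 genes with a slope estimate below 0 did not pass the test. Grin2c (ENSMUSG00000020734, chr11:115249169-115267243 on GRCm38, minus strand), a subunit known from cerebellar granule cells and also from astrocytes, had the lowest estimate (-0.73 ± 0.32, edgeR adjusted p = 0.16). Grin2c measured 39.6, 56.9, 47.7, 43.3 and 47.6 CPM in the WT control-peptide libraries and 64.5, 39, 37.9, 47.3 and 46.3 CPM in the WT inhibitor libraries. Grin2c in APP/PS1 was at 41.7 and 59.3 CPM with control peptide and at 40.5, 61.7, 54.4, 57.2 and 50 CPM with inhibitor. In the 4 libraries with the highest neuron scores Grin2c was at 39.6, 39, 41.7 and 50 CPM, while its highest values were 64.5 CPM in WT inhibitor replicate 1 and 61.7 CPM in APP/PS1 inhibitor replicate 2. The other 4 were close to 0: Gabrd (-0.08 ± 0.35), Grin3b (-0.04 ± 1.5), Grik5 (-0.02 ± 0.17) and Grm8 (-0.01 ± 0.27).

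Of 37 auxiliary and anchoring genes, which hold receptors at the synapse or tune their gating, 18 rose with the neuron score, among them the AMPA receptor auxiliary subunits Shisa9 (1.82 ± 0.2), Shisa6 (1.82 ± 0.22) and Cacng2 (1.44 ± 0.18) and the scaffold Dlg4 (0.58 ± 0.15). The adaptors Grip2 (-0.97 ± 0.28) and Pick1 (-0.8 ± 0.23), which bind AMPA receptor tails, fell. Of 22 presynaptic vesicle genes 14 rose, such as Cplx1 (1.56 ± 0.2); 3 of the 14, Snap25, Syt1 and Syn1, are themselves in the score. Of 20 genes of transmitter synthesis and transport 6 rose, including the GABA-synthesising enzyme Gad2 (1.23 ± 0.19), the neuronal vesicular glutamate transporter Slc17a6 (1.25 ± 0.23) and the astrocyte glutamate transporter Slc1a3 (1 ± 0.24). Slope estimates were above 0 for 32 of 37, 21 of 22 and 14 of 20 genes in the auxiliary, presynaptic and transmitter lists. None of these 3 lists had a gene that passed between genotypes or between peptides by edgeR. With inhibitor over both genotypes, estimates were lower for 25 of 37, 15 of 22 and 13 of 20 genes, in the same order of lists. The medians were -0.049, -0.06 and -0.072. At an unadjusted p under 0.05 over both strata, edgeR gave 1, 1 and 0 genes for genotype and 2, 0 and 0 for inhibitor in the auxiliary, presynaptic and transmitter lists, where 6.38% and 2.11% of all tested genes were under that p.

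Markers of neuron classes and of other cells were set beside the score. All 6 excitatory neuron markers and 4 of 7 inhibitory neuron markers rose, Sst with a slope of 3.23 ± 0.45. Of the glial and vascular markers, Gja1 and Slc1a3 of 8 for astrocytes, Cldn11 of 7 for oligodendrocytes, Vcan and Gpr17 of 6 for their precursors and Ly6c1 of 8 for endothelium rose. None of 7 mural, 6 microglia and 5 fibroblast markers passed by edgeR; at an unadjusted p under 0.05 there were 1, 1 and 0. Choroid plexus markers had a median slope of -5.871, with 5 of 5 below 0 and none called (smallest edgeR adjusted p = 0.0802). All 5 were at an unadjusted p under 0.05 by edgeR, where 25.3% of all tested genes were. With the choroid plexus score in the model, an alternative chosen after seeing the data, 8 of 42 receptor genes passed, all among the 13, where 4.54% of all genes passed. They included Gabbr1, Gabbr2, Gabrb1, Gabrg3, Grik3 and Grin2b. Leaving out WT inhibitor replicate 2, the library with the highest neuron score, also left 8 (3.11% of all genes), among them Gabbr2 but not Gabbr1, Gabrg3, Grin1 or Gabra5.

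**Figure D5:**
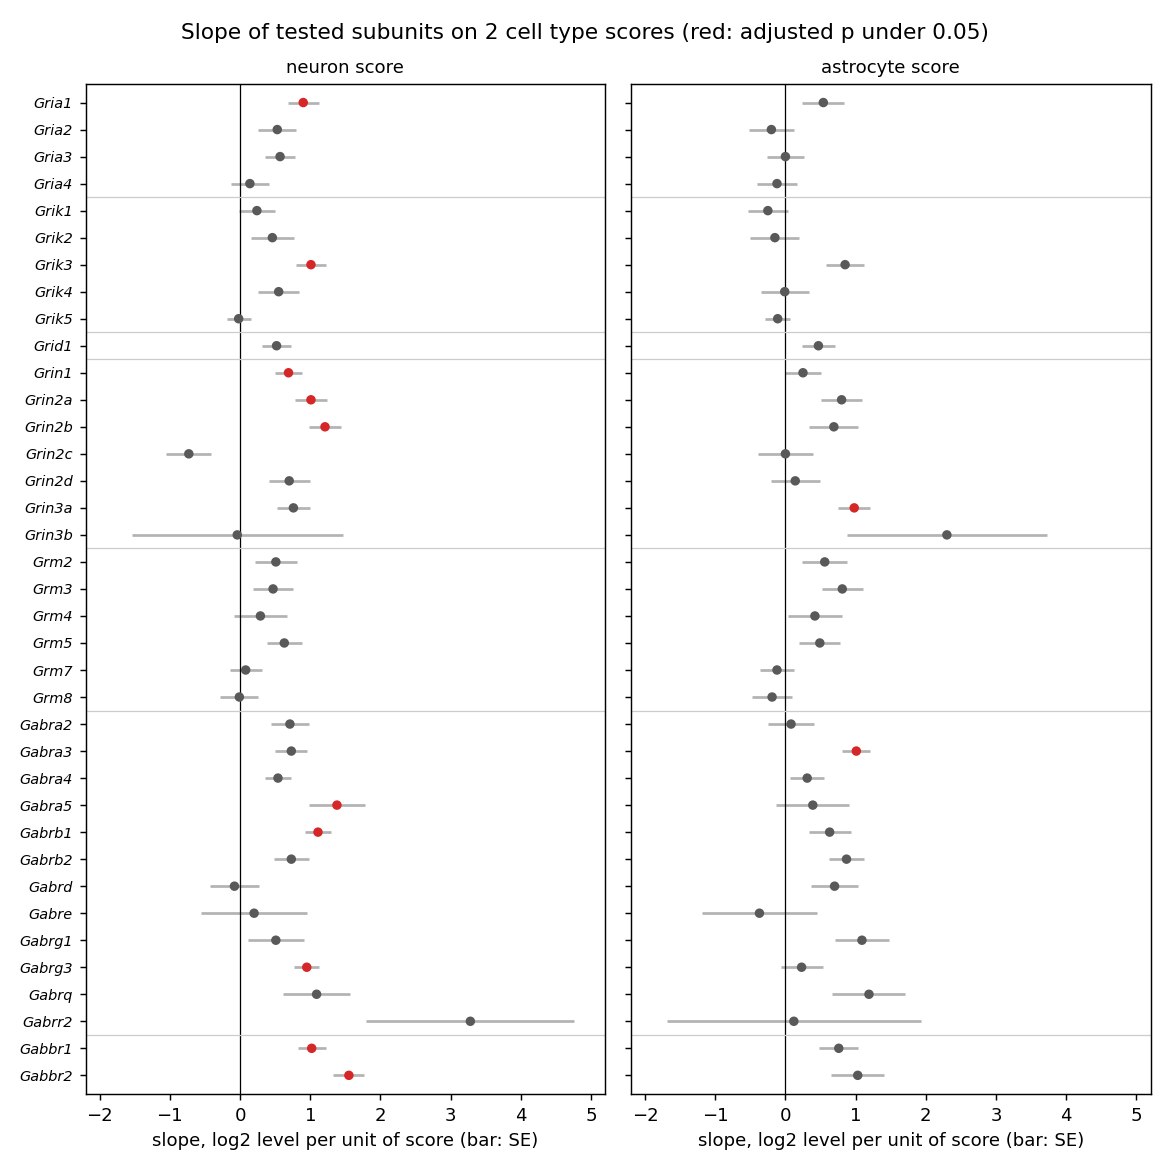
Slope of 37 of the 42 tested receptor genes on the neuron score (left) and on the astrocyte score (right), in log2 units of level per unit of score, with bars of 1 SE; red points passed an adjusted p of 0.05. On the left 10 of the genes shown are red, from Grin1 (0.69) to Gabbr2 (1.55); on the right Gabra3 (1.01) and Grin3a (0.98) are.

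The same regression on an astrocyte score, the mean log2 CPM of 8 astrocyte markers (7.13 to 7.89), gave 2 of 42 receptor genes. Of all genes 3.49% passed in either direction and 2.78% with a slope above 0, so 2 of 42 is near the share over all genes. The 2 were Gabra3 (1.01 ± 0.2, edgeR adjusted p = 0.0233) and Grin3a (0.98 ± 0.23, edgeR adjusted p = 0.0362). Gabra3 measured 75.8, 73.3, 70.1, 69.3 and 63.3 CPM in the WT control-peptide libraries and 69.9, 80, 57.9, 55.2 and 68.1 CPM in the WT inhibitor libraries. Gabra3 in APP/PS1 was at 81.8 and 73 CPM with control peptide and at 49, 64.8, 68.2, 54.7 and 83.1 CPM with inhibitor. Gabra3 was highest in APP/PS1 inhibitor replicate 5, which also had the highest astrocyte score, and lowest in APP/PS1 inhibitor replicate 1, which had the lowest. Gabrb2 (0.87 ± 0.25) and Grik3 (0.85 ± 0.27) followed without passing. Of receptors known from astrocytes, Grm3 (0.81 ± 0.29, edgeR adjusted p = 0.108), Gabrg1 (1.09 ± 0.39, edgeR adjusted p = 0.113) and Grin2c (0 ± 0.39, edgeR adjusted p = 0.999) did not pass. Estimates below 0 included Grik1 (-0.25 ± 0.28) and Grm8 (-0.19 ± 0.28), neither of which passed.

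The astrocyte result was the less steady. The count of 2 was 1 of 42 with the neuron score in the model (Gabra3), where a larger share of all genes, 9.49%, passed. It was 5 with DESeq2's test, where 11.3% of all genes with an adjusted p passed, so that count is near the share over all genes. It was 0 without WT inhibitor replicate 4 or APP/PS1 inhibitor replicate 1, 4 or 5. It was 1 without WT control-peptide replicate 3, WT inhibitor replicate 2 or APP/PS1 inhibitor replicate 2, 3 without APP/PS1 inhibitor replicate 3 and 4 without WT control-peptide replicate 4. Without APP/PS1 inhibitor replicate 5 no gene of the whole table passed. Of the auxiliary and anchoring list 2 of 37 genes passed with the astrocyte score, of the presynaptic list 0 of 22, and of the synthesis and transport list 5 of 20, all with a slope above 0. Those 5 include the glutamate transporters Slc1a2 and Slc1a3, which are in the score, and the GABA transporter Slc6a11.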

How the data were processed

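RNA of cortical microvessels was sequenced in 17 libraries; their groups come from the labels. The authors deposited raw counts per Ensembl gene in 1 table. The submitters' processing notes name cutadapt, STAR, HTSeq and DESeq2 and the builds mm10 and GRCh37 without roles or versions; the annotation is not given in the sources used here. The table has 20 further columns that match no sample label and were not used. Symbols came from GENCODE vM21 for 42250 of 42687 genes. Counts were fitted in R 4.3.3 with edgeR 4.0.16 (TMM scaling, filterByExpr over the 4 groups, quasi-likelihood F test, all 17 libraries, Benjamini-Hochberg adjustment over 18753 genes, threshold 0.05). Log2 levels used a prior count of 2. Genotype and inhibitor were tested as additive terms, within each stratum, and as an interaction. Slopes on the 2 scores kept the 4 groups as a term. On simulated counts with a log2 change of 1, 97% of 200 changed genes were recovered for genotype and 96.5% for inhibitor over both strata. For genotype the share was 79.5% with control peptide and 91% with inhibitor. For inhibitor it was 93.5% in WT and 82% in APP/PS1. Smaller log2 changes were not simulated. The changed genes were drawn only from those with a mean above 5 CPM. The recovered shares therefore do not cover Gabrr2 (mean 2.92 CPM), Gabrq (2.87), Gabre (0.938) and Grin3b (0.475). For the neuron slope, with 200 of 18558 genes changed, 0% were recovered at a slope of 1 and, in a second run, 97.5% at a slope of 3. That simulation drew genes and markers independently, with the spread of a fit on the groups alone. In the measured counts more genes passed, and receptor slopes of 0.69 (Grin1) to 1.55 (Gabbr2) passed. The reason for this difference was not tested, so recovery of slopes of that size is not shown by the simulation. Alternatives were DESeq2 1.42.0's test and size factors, no count filter, only the groups compared, added covariates and leaving out each library. The members and gene lists were chosen with earlier results of these data known. Named genes were those highest in each family, those past the threshold or with the smallest p in each comparison, and the 5 positive and 3 negative slopes of smallest p. Some genes were fitted and counted with the rest but are not reported by name here. No 2 of the 17 libraries held identical counts.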

Additional observations from a re-analysis of the deposited data

Results flagged for a closer look

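Each of the 42 tested genes, the summed level and both scores were examined in the 3 groups of 5 libraries (135 sets of values) for 1 library far from the rest, by Dixon's ratio above 0.71; chance flags about 1 in 20 sets, or 6.75 here, and 10 were found, all on the high side. Gabrr2 stood at 15.6 CPM in WT control-peptide replicate 1 (the others 1.25 to 2.41) and at 6.46 CPM in WT inhibitor replicate 3 (1.17 to 1.78). Gabbr2 was at 619 CPM in WT control-peptide replicate 1 (352 to 426). Grm3 was at 150 CPM in WT control-peptide replicate 2 (129 to 135), and Gabrg3 at 118 CPM in WT inhibitor replicate 2 (75.1 to 86.4). In APP/PS1 inhibitor replicate 3, Grik4 was at 46 CPM (34.1 to 34.6) and Grik2 at 315 CPM (203 to 231). At few counts, Gabre was at 1.36 CPM in APP/PS1 inhibitor replicate 4 (0.812 to 0.948), and Grin3b at 0.699 CPM in WT inhibitor replicate 5 (0.18 to 0.26) and 1.56 CPM in APP/PS1 inhibitor replicate 5 (0.148 to 0.454).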

How the results depend on the processing

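The count of 0 receptor genes in each genotype, inhibitor and interaction comparison held under every alternative run. The neuron slope count of 13 was 8 with the choroid plexus score added (4.54% of all genes) and 8 to 16 when 1 library was left out. The astrocyte slope count of 2 was 5 with DESeq2's test (11.3% of all genes with an adjusted p), 1 with the neuron score added (9.49% of all genes) and 0 to 4 when 1 library was left out. Estimates of genes that did not pass changed sign when 1 library was left out for Gabrq in the interaction (-0.82 to 0.05), Gabrd (-0.4 to 0.14) and Grik5 (-0.13 to 0.05) on the neuron score, and Grik1 (-0.54 to 0.01) on the astrocyte score; the cause was not tested. The genotype median ran from -0.065 to 0.006 and the inhibitor median over both genotypes from -0.166 to -0.089 when 1 library was left out. Leaving out an APP/PS1 control-peptide library leaves 1, which is then assumed to vary like the other groups. No paired analysis was possible because the labels give no replicate numbers that groups share. The neuron score spans less than 1 log2 unit, which limits the precision of every slope, and a receptor slope that did not pass is not shown to be absent.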

Other observations

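Gabrr2, a rho GABA receptor subunit, was chosen for a closer look after its values were seen. Its reads numbered 269 of 674 in WT control-peptide replicate 1. Across the 17 libraries the genes with the most similar pattern, out of 17269 with at least 200 counts (Pearson's r of log2 of CPM plus 0.5, given as a description with no test), were Hif3a (0.909), Arrdc3 (0.908), Plin4 (0.903), Klf15 (0.896) and Gm19439 (0.896). Without WT control-peptide replicate 1 the values were 0.857, 0.761, 0.878, 0.805 and 0.87. WT inhibitor replicate 3, the other library with high Gabrr2, was still in them, and the values without both were not taken. Spearman's rank correlations over all 17 libraries were lower, at 0.779, 0.762, 0.765, 0.6 and 0.782. Plin4, which coats lipid droplets, was at 165 CPM in WT control-peptide replicate 1 and 151 CPM in WT inhibitor replicate 3, and at 7.52 to 38.3 CPM in the other 15 libraries. Fkbp5, a well-known target of the glucocorticoid receptor, was looked up by name and not taken by its rank. It ranked the 16th and was at 63.7 and 97.7 CPM in the same 2 libraries and at 9.18 to 26.1 CPM elsewhere. These genes and Gabrr2 share depth and scaling within each library. The similarity and the Plin4 and Fkbp5 values used CPM on library totals of the genes with at least 200 counts. The trimmed mean scaling used elsewhere was not applied to them.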
